A study of Mus musculus with 6 samples.

Results

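Neutrophils pack their antimicrobial proteins into granules that form in sequence as the cell matures. Genes of the primary (azurophil) granule, which include myeloperoxidase and the elastase family of serine proteases, are transcribed in promyelocytes. Genes of the secondary (specific) granule and of the granules that follow are transcribed later, in myelocytes and beyond, under transcription factors such as C/EBP epsilon. The order of these waves makes the gene sets a measure of how far granulocytes have matured, and marrow holds cells of every stage. The report follows 10 such genes: Mpo, Elane, Prtn3 and Ctsg of the primary granule, and Ltf, Camp, Ngp, Lcn2, Mmp8 and Chil3 of the secondary and later granules. They were found by gene symbol among 30664 genes of an expression array, and each was named on 1 row. The row of Chil3 carries the present and an older name (Chi3l3) of the same gene.

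The RNA came from cells sorted as megakaryocytes, the large polyploid marrow cells that shed platelets. The sort took cells with high side scatter, high CD41 and at least 8N of DNA from the marrow of female C57 mice. There were 2 groups of 3 arrays: mice with acute myeloid leukaemia induced by the fusion oncogene MLL-AF9 (AML), and healthy mice (control). How the leukaemia was started, the age of the mice and any pooling of animals are not given in the sources used here. The comparison asks how the transcripts of such sorted cells differ between leukaemic and healthy marrow. The values are log2 expression, ± is the SD over n = 3 arrays, differences are AML minus control, and 3 arrays a group limit the precision. Arrays are labelled as biological replicates but not tied to named animals, so a p-value here weighs a difference only against these samples' spread.

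Array medians over genes ran from 5.29 to 5.32 in AML and from 5.16 to 5.24 in control, and the median difference over all genes was 0.11. The sorts held megakaryocyte RNA in both groups. All 11 measured megakaryocyte markers lay above the background level on every array, and limma called 0 of them higher or lower (also 0 at an unadjusted p under 0.05). Of all genes, 10.7% were called either way at an adjusted p under 0.05. That background is the 95th percentile, on each array, of the 1721 genes for olfactory or vomeronasal receptors. It stood highest on AML array 3, at 6.24, against 5.11 to 5.76 on the other arrays. In a bulk sort, fewer cells of a type and less RNA per cell cannot be told apart, and which cells carried the granule transcripts is not known from these data.

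The genes of the secondary and later granules were lower in the AML sorts, while those of the primary granule were not. All 6 secondary and later genes fell, by between 2.16-fold (Ngp) and at least 6.26-fold (Chil3, which was near background in AML), with a median difference of -2.27. Of the 4 primary genes 0 fell and 1, Ctsg, rose, and their median difference was 0.36. Over all genes tested with limma, 6.23% were called lower and 4.48% higher at an adjusted p under 0.05. At a fall of at least 2-fold the share was 1.49%, and all 6 secondary and later genes met it. The 2 groups of arrays did not overlap in any of these 6 genes (13% of all genes had every AML value below every control value) and in 3 of the 4 primary genes (28.2% had every AML value above). Because the genes were chosen with these data known, the difference between the classes is given as a description with no test.

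**Figure D1:**
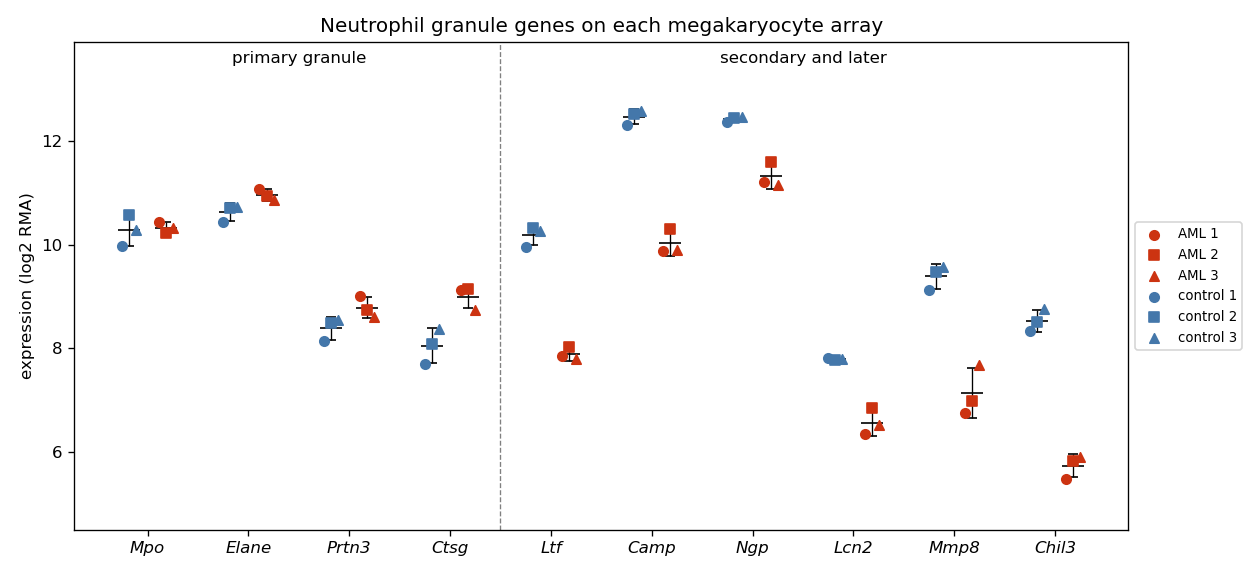
Expression (log2 RMA, vertical axis) of the 10 granule genes on each array, control in blue and AML in red, with symbols for arrays 1 to 3 and bars for the mean ± SD. The red points lie below the blue ones in all 6 genes to the right of the dashed line and above them in Elane, Prtn3 and Ctsg to its left, while in Mpo the groups overlap.

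Lactoferrin, the iron-binding protein of the secondary granule, is encoded by Ltf. The gene stood at 7.85, 8.02 and 7.78 on AML arrays 1, 2 and 3 and at 9.96, 10.31 and 10.27 on control arrays 1, 2 and 3. Every AML array was low, and the highest of them lay 1.94 below the lowest control array. The mean fell from 10.18 ± 0.19 to 7.88 ± 0.12, or 4.91-fold (difference -2.30, SE 0.12, limma's adjusted p = 3.0e-04).

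Camp and Ngp encode cathelicidin-family proteins of the same granule, Camp being the precursor of the mouse antimicrobial peptide CRAMP. Camp read 9.87, 10.30 and 9.90 on the AML arrays and 12.30, 12.51 and 12.58 on the control arrays. Its mean fell 5.42-fold, by 2.44 (SE 0.14, limma's adjusted p = 3.7e-04). Ngp read 11.21, 11.59 and 11.14 in AML against 12.37, 12.44 and 12.46 in control, which is a 2.16-fold fall, by 1.11 (SE 0.12, limma's adjusted p = 0.00315). In both genes the groups were apart, and AML array 2 was the least low. The gap between the groups was 1.99 in Camp and 0.78 in Ngp, and the 95% intervals of the falls, -2.77 to -2.11 and -1.40 to -0.82, did not overlap. The genes Camp, Ngp and Ltf lie on chromosome 9, as does Mmp8.

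Lcn2, lipocalin 2, binds bacterial siderophores and is also made outside the granulocyte lineage. Its AML values were 6.34, 6.84 and 6.52 and its control values 7.81, 7.76 and 7.79. The control arrays were nearly alike, within 0.04, while the AML arrays spread over 0.50, all of them lower. Lcn2 fell 2.33-fold, by 1.22 (SE 0.13, limma's adjusted p = 0.00239).

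Mmp8, the neutrophil collagenase, was lower in AML with the widest spread of the set. It stood at 6.76, 6.98 and 7.68 on the AML arrays and 9.11, 9.47 and 9.57 on the control arrays. AML array 3 was the least low here and remained 1.43 below the lowest control array. The mean fell 4.74-fold, by 2.24 (SE 0.24, limma's adjusted p = 0.00274).

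Chil3 encodes the chitinase-like lectin Ym1, which neutrophil precursors as well as monocytes and macrophages make. It read 5.48, 5.82 and 5.89 in AML and 8.34, 8.50 and 8.76 in control. The fitted difference of -2.80 (SE 0.15, limma's adjusted p = 3.4e-04) was the largest of the 10 genes, 6.98-fold. Only 1 of the 3 AML values was above its array's background, so that the level in AML is not well measured. Set against the background where that is higher, the fall was at least 6.26-fold. Its paralogs lie beside it: Chil4 differed by -1.46 and Chil5 by -0.58 (limma's adjusted p 9.4e-04 and 0.00924), and both were below background on every AML array, and Chil5 on every control array too. Chil3 and Chil4 are close in sequence, so probes of one may read the other, and both values are uncertain to that extent.

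Mpo encodes myeloperoxidase, the heme enzyme that makes hypochlorous acid and a defining protein of the primary granule. Its values were 10.43, 10.22 and 10.31 on the AML arrays and 9.97, 10.56 and 10.28 on the control arrays. The groups overlapped, and the control arrays enclosed the AML arrays. The difference was 0.05 (95% interval -0.30 to 0.40, limma's adjusted p = 0.824), and its sign changed with the scaling of the arrays. That interval does not reach the fall of any secondary or later gene, the smallest of which was 1.11.

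Elane and Prtn3, neutrophil elastase and proteinase 3, are serine proteases whose genes lie next to each other on chromosome 10. Elane stood at 11.08, 10.93 and 10.86 in AML and at 10.43, 10.71 and 10.73 in control. Prtn3 stood at 9.0, 8.74 and 8.59 in AML and at 8.13, 8.49 and 8.54 in control. The AML arrays lay above the control arrays in both genes, by only 0.13 in Elane and 0.05 in Prtn3. The differences of 0.33 (95% interval 0.08 to 0.59) and 0.39 (0.05 to 0.74) did not pass limma's adjustment over all genes, with adjusted p of 0.0892 and 0.120. With array weights both passed (adjusted p 0.0335 and 0.0367), and Prtn3 also under cyclic loess (adjusted p = 0.0495).

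Ctsg, cathepsin G, is the third serine protease of the granule and was the primary gene that rose. Its values were 9.11, 9.14 and 8.73 in AML against 7.69, 8.09 and 8.37 in control. The lowest AML array lay 0.37 above the highest control array. The mean rose from 8.05 ± 0.34 to 9.0 ± 0.23, or 1.93-fold (difference 0.95, SE 0.19, limma's adjusted p = 0.0251). Leaving out the first AML array gave an adjusted p of 0.0682, the second AML array 0.0777 and the second control array 0.0914, so the call was lost in each case.

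**Figure D2:**
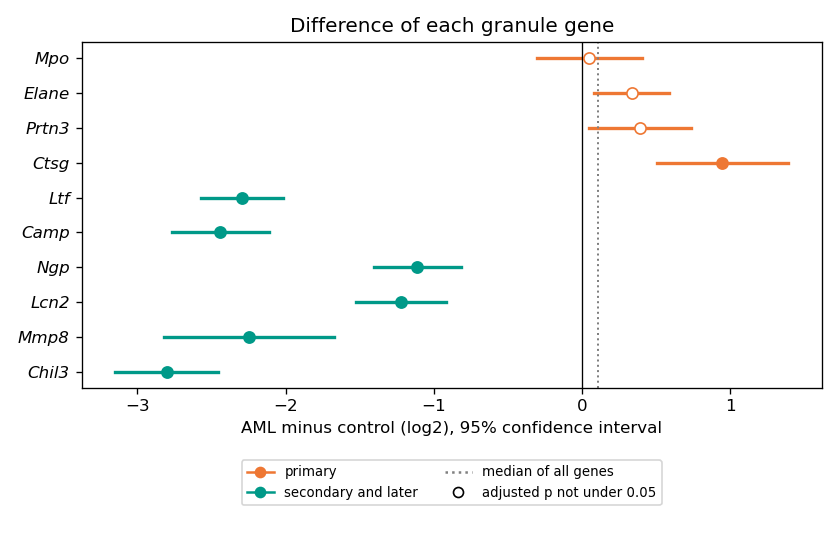
Difference between AML and control (log2, horizontal axis) for each granule gene with its 95% confidence interval, primary genes in orange and secondary and later genes in green; open points did not pass an adjusted p of 0.05 and the dotted line is the median of all genes, 0.11. All 6 green intervals lie below 0, and 3 of the 4 orange points are open.

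Set against the control mean gene by gene, the classes parted on each AML array. The median deviation of the secondary and later genes was -2.46, -2.16 and -2.05 on AML arrays 1, 2 and 3, and that of the primary genes was 0.53, 0.34 and 0.22. The gap between the class medians was thus -3.00, -2.49 and -2.27 on the AML arrays, against -0.06 to 0.10 on the control arrays. AML array 1, with the lowest median of the secondary and later genes, had the highest of the primary genes.

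Within the AML group the secondary and later genes were not ranked alike. AML array 2 was the highest for Ltf, Camp, Ngp and Lcn2, and AML array 3 for Mmp8 and Chil3. The Chil3 value on AML array 3, 5.89, lay below that array's background of 6.24, so its rank is not well measured. Among the control arrays, control array 1 was the lowest for all 4 primary genes and for 5 of the 6 secondary and later genes, Lcn2 being the exception. On that array the median of the 11 megakaryocyte markers was 9.57, against 9.02 and 9.08 on control arrays 2 and 3. That of the 14 genes listed as mature neutrophil markers was 7.99 against 8.42 and 8.45. On AML arrays 1, 2 and 3 the megakaryocyte median was 9.65, 9.18 and 10.1, and the neutrophil median 7.06, 7.30 and 7.05. The part of these marker levels in the granule values was not tested. All 6 falls kept their call without any single array, control array 1 included.

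**Figure D3:**
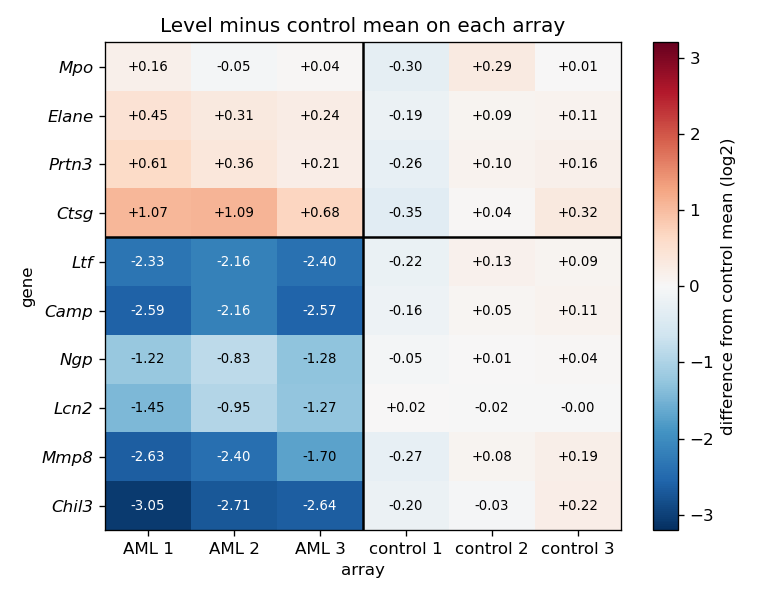
Level of each granule gene (rows) on each array (columns) minus that gene's control mean, in log2 units, with blue for lower and red for higher. The secondary and later genes are blue on all 3 AML arrays, between -0.83 and -3.05, whereas Elane, Prtn3 and Ctsg lie between 0.21 and 1.09 there.

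The stretches in front of these genes were read for the letters bound by factors known to act on granule genes, since all 6 secondary and later genes fell. C/EBP proteins bind sites that resemble TTNNGNAA, and PU.1 binds sites that resemble GAGGAAGT. Sequences are from RefSeq (GRCm38.p6) and cover the 250 bases before the gene's start, 5′ to 3′ on the gene's strand. All 10 genes matched an entry. Both strands were searched. The letters TTNNGNAA occurred in 5 of the 6 secondary and later genes (Ltf, Ngp, Lcn2, Mmp8 and Chil3, not Camp) and in 0 of the 4 primary genes, against 36.8% of all 32851 promoters of this length. The letters GAGGAAGT occurred in Mpo, Elane and Prtn3 and in Mmp8, against 2.44% of all promoters. The count rests on the spelling, and 9 others were also searched. TTGCNNAA, a narrower spelling within the first, occurred in 0 primary and 4 secondary and later genes (9.56% of all promoters). The shorter GAGGAA, which lies within GAGGAAGT, occurred in 4 and 3 (23.3%) and AGGAAG, which overlaps it, in 4 and 5 (29.5%). The RUNX spellings TGTGGT and TGTGGTTT occurred in 1 and 0 (14.0%) and in 0 and 0 (1.49%), and the MYB spellings AACNGTT and AACTG in 0 and 0 (3.80%) and in 3 and 4 (39.1%). AGATAA of the GATA factors occurred in 0 and 2 (9.99%), and TATAAA in 1 and 0 (12.4%). A match of letters is a description of the sequence, not a measured binding site.

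3 secondary and later genes are shown, for the largest fall (Chil3), the smallest p (Ltf) and the smallest fall (Ngp), with TTNNGNAA or its reverse complement in capitals. Chil3 is chr3:106167565-106167814 on the minus strand, Ltf is chr9:111019042-111019291 and Ngp is chr9:110419558-110419807, both on the plus strand.
Chil3: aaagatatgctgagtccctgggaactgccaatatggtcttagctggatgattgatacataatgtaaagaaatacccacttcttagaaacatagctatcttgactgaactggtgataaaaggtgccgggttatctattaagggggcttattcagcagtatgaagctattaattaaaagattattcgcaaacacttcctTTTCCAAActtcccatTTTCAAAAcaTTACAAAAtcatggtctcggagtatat
Ltf: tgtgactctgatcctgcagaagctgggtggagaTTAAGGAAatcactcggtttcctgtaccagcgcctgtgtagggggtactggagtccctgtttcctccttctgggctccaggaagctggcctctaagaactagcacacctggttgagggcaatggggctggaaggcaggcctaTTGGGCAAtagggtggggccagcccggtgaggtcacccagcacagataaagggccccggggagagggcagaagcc
Ngp: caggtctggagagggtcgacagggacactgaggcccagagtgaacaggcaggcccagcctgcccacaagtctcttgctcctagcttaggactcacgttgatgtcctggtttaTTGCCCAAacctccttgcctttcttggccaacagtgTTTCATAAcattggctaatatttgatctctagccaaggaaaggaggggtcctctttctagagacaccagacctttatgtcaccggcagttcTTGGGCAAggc
The matches of Chil3 begin 53, 37 and 27 bases before the start, those of Ltf 217 and 75, and those of Ngp 138, 102 and 11. Ltf and Ngp share the letters TTGGGCAA, at 75 and 11 bases, and Ngp also has their reverse complement, TTGCCCAA, at 138.

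Elane and Prtn3 are shown as the adjacent pair of primary genes, with GAGGAAGT in capitals. Elane is chr10:79886062-79886311 and Prtn3 is chr10:79879417-79879666, both on the plus strand.
Elane: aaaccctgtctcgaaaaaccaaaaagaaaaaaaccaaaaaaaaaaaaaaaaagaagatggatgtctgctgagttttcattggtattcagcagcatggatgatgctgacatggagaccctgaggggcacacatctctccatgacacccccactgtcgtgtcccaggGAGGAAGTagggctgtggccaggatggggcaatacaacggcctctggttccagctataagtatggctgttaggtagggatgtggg
Prtn3: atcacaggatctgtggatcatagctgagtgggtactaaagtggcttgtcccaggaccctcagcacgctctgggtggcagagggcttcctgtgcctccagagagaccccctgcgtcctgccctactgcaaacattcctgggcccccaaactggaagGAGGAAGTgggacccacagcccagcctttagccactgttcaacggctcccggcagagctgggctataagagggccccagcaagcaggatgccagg
The match begins 85 bases before the start of Elane and 95 bases before that of Prtn3, on the gene's own strand in both.

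Most genes around the granule genes on their chromosomes were not called. Of 36 measured genes within 2 places of a granule gene and not among the 10, 0 were called higher by limma (8 at an unadjusted p under 0.05) and 6 lower, 16.7% against 6.23% of all genes. The 6 were Chil4 and Chil5 beside Chil3, Ccrl2 beside Ltf, Ptpn23 beside Ngp, Mmp27 beside Mmp8, and Mcpt8 near Ctsg. The AML mean of Ccrl2, 4.56, was below the background level of every AML array, so its fall is not well measured. Mcpt8, a basophil protease gene, fell by 1.95 (limma's adjusted p = 3.6e-04), from 10.48 to 8.52, while Ctsg, 2 places along the same protease cluster, rose by 0.95. The immediate neighbours of Camp, Nme6 and Cdc25a, differed by 0.38 and 0.10 (limma's adjusted p 0.109 and 0.618).

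Other genes of the primary granule were mixed. Of 8 measured, 0 rose by limma (3 at an unadjusted p under 0.05) and 3 fell, against 4.48% and 6.23% of all genes. Their median difference was 0.05. The count that rose was 1 without AML array 1, 2 without AML array 3, 2 under cyclic loess and 3 with array weights. The 1 without AML array 1 was Bpi, which was also among those with array weights. Bpi lay below background on every array, so its difference is not well measured. Lyz2, lysozyme, which macrophages also make in quantity, fell 2.83-fold from 11.03 ± 0.09 to 9.53 ± 0.29 (adjusted p = 0.00195). Ctsc, the protease that activates the serine proteases of the granule, fell 2.74-fold from 8.67 ± 0.09 to 7.21 ± 0.30 (adjusted p = 0.00232). Srgn, the granule proteoglycan serglycin, fell by 0.29, a call that was lost without any single array and in 3 other alternatives (adjusted p 0.0573 to 0.147). Prss57, a serine protease close to elastase, stood at 7.42 ± 0.26 against 7.33 ± 0.20 (adjusted p = 0.708), and Cd63, a granule membrane tetraspanin that platelets and other cells share, at 10.93 ± 0.22 against 10.91 ± 0.14 (adjusted p = 0.939). Prss57 was picked with its values in view.

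Other genes of the secondary and tertiary granules leaned lower, though not all of them. Of 20 measured, 10 fell and 1 rose (6.23% and 4.48% of all genes), with a median difference of -0.83 against 0.11 over all genes. At an unadjusted p under 0.05 in limma, 13 were lower and 1 higher. In 13 every AML value lay below every control value (13% of all genes). Leaving out control array 3 left 7 lower. Wfdc21, a WAP-domain gene, fell 6.79-fold from 10.85 ± 0.21 to 8.09 ± 0.34 (limma's adjusted p = 5.3e-04). Cybb, the catalytic subunit of the phagocyte oxidase, fell 3.64-fold from 10.46 ± 0.15 to 8.60 ± 0.20 (limma's adjusted p = 5.9e-04), whereas its partner subunit gene Cyba stood at 10.90 ± 0.16 against 10.96 ± 0.03 (adjusted p = 0.654). Mcemp1 fell 2.52-fold (adjusted p = 0.00128), Pglyrp1, a peptidoglycan recognition protein of the granule, fell 1.87-fold (adjusted p = 0.00857), and Orm1, an acute-phase protein, fell at least 1.75-fold to a level below background on every AML array. The gene that rose was Cd33, a sialic acid-binding receptor of myeloid cells, by 0.85, a call lost without any single array but AML array 3 and under median centring (adjusted p 0.0543 to 0.116). Mmp9, gelatinase B, the defining enzyme of the tertiary granule, stood at 7.41 ± 0.16 against 7.23 ± 0.21 (adjusted p = 0.342), Olfm4 at 7.29 ± 0.29 against 7.59 ± 0.27 (adjusted p = 0.271) and Hp, haptoglobin, at 8.19 ± 0.35 against 8.31 ± 0.15 (adjusted p = 0.645). Mmp9, Olfm4 and Hp were picked with their values in view.

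The regulators of granule genes did not fall as a set. Of 14 measured, 1 rose and 2 fell (4.48% and 6.23% of all genes), and the median difference was -0.14. At an unadjusted p under 0.05 in limma, 5 were higher and 6 lower. The groups did not overlap in 4 that were higher and 6 that were lower (28.2% and 13% of all genes). The largest difference, 0.92 in Myb, was not called (limma's adjusted p = 0.0727). Cebpe, the factor required for secondary granules, stood at 8.49 ± 0.14 against 8.09 ± 0.29 (difference 0.40, limma's adjusted p = 0.127). All 3 of its AML arrays lay above the control arrays, as in 28.2% of all genes. Cebpa, which acts earlier in the lineage, stood at 9.0 ± 0.21 against 8.70 ± 0.09 (adjusted p = 0.130). Gfi1, a repressor needed for neutrophil differentiation, rose from 5.91 ± 0.03 to 6.49 ± 0.16 (adjusted p = 0.0120). Klf5 fell by 0.68 and Irf8, which favours monocytes over neutrophils, by 0.66 (adjusted p 0.0124 and 0.0138). Leaving out AML array 3 left 2 higher, and the replicate block left 0 higher and 1 lower. Without control array 2 or control array 3 the calls of Gfi1, Klf5 and Irf8 were lost (adjusted p 0.0544 to 0.0659). Spi1, the gene of PU.1, and Csf2rb were not analysed here.

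Genes listed as markers of mature neutrophils were lower as well, with a single opposite gene. Of 14 measured, 12 fell and 1 rose (6.23% and 4.48% of all genes), with a median difference of -1.24. Leaving out the second or the third control array left 9 lower. Their summed linear level was 5276 to 6240 in AML and 12985 to 16107 in control. Il1r2, the decoy receptor of interleukin 1, fell 5.31-fold from 9.36 ± 0.21 to 6.95 ± 0.22 (limma's adjusted p = 4.3e-04), S100a8, a calprotectin subunit, 4.47-fold from 11.72 ± 0.17 to 9.57 ± 0.30 (adjusted p = 8.0e-04), and Retnlg, a resistin-like gene, 2.09-fold from 12.17 ± 0.11 to 11.11 ± 0.08 (adjusted p = 0.00108). Fcnb, ficolin B, which is not a marker of the mature stage alone, fell at least 5.99-fold. Stfa3, a stefin gene, rose at least 9.27-fold, from 5.25 ± 0.22 to 8.64 ± 0.28 (adjusted p = 2.8e-04).

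Few progenitor markers were called. Of 11 markers of granulocyte-monocyte progenitors, which express the primary granule genes, 1 rose and 2 fell (4.48% and 6.23% of all genes). Their median difference, 0.10, lay at that of all genes. Their summed linear level was 2137 to 2647 in AML and 2219 to 2682 in control. Leaving out AML array 3 left 2 higher in that list too. Cd34 rose by 0.66 (limma's adjusted p = 0.0264), a call that median centring or the loss of AML 1, AML 2, control 1 or control 2 ended (adjusted p 0.0569 to 0.109). Ms4a4c fell at least 4.52-fold, and the receptor gene Csf1r fell by 1.16. Ms4a3, a marker close to the primary granule stage, stood at 9.04 ± 0.35 against 8.87 ± 0.31 (adjusted p = 0.589).

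Several other cell types had lower markers in the AML sorts too, where 6.23% of all genes were called lower. Of the measured markers, 6 of 8 fell for monocytes, 8 of 10 for macrophages, 5 of 7 for basophils and mast cells, 4 of 7 for eosinophils, 4 of 6 for B cells and 2 of 4 for erythroid cells, and 0 rose in any of these lists (1 basophil and mast cell marker was higher at an unadjusted p under 0.05 in limma). Of the 6 B cell markers, 0 lay above background on every array. Ms4a2, 1 of the basophil and mast cell markers that fell, lay below background on every array. These falls are therefore not well measured, and set against background that of Cd79a was at least 1.11-fold. Leaving out control 2 or control 3 left 2 macrophage, 2 eosinophil and 1 erythroid marker lower. Leaving out AML 2 left 5 macrophage, 2 B cell and 1 erythroid marker lower, and leaving out AML 1 left 2 eosinophil markers. Leaving out AML 3, control 1 or control 2 left 2 B cell markers lower, and without AML 3 also 1 monocyte and 1 basophil or mast cell marker rose. With the replicate block, 3 macrophage, 4 monocyte, 2 eosinophil, 2 B cell and 1 erythroid marker were lower. The summed level of the macrophage markers was 1597 to 2570 in AML and 3705 to 4240 in control, that of the monocyte markers 4857 to 6916 and 5726 to 6452, that of the basophil and mast cell markers 1417 to 1680 and 3782 to 5078, and that of the eosinophil markers 6019 to 8274 and 9662 to 11210. For the megakaryocyte markers it was 14102 to 20008 in AML and 14437 to 19083 in control. Such sums lean on the brightest gene, which was Ly6c2 for monocytes and Prg2 for eosinophils. Ly6c2 was not called lower (12.27 ± 0.30 in AML, 11.95 ± 0.10 in control, limma's adjusted p = 0.187). By contrast, 7 of the 8 monocyte markers had every AML value below every control value (13% of all genes). The part of these cell types in the falls of Lcn2 and Chil3, which are not confined to neutrophils, was not tested.

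**Figure D4:**
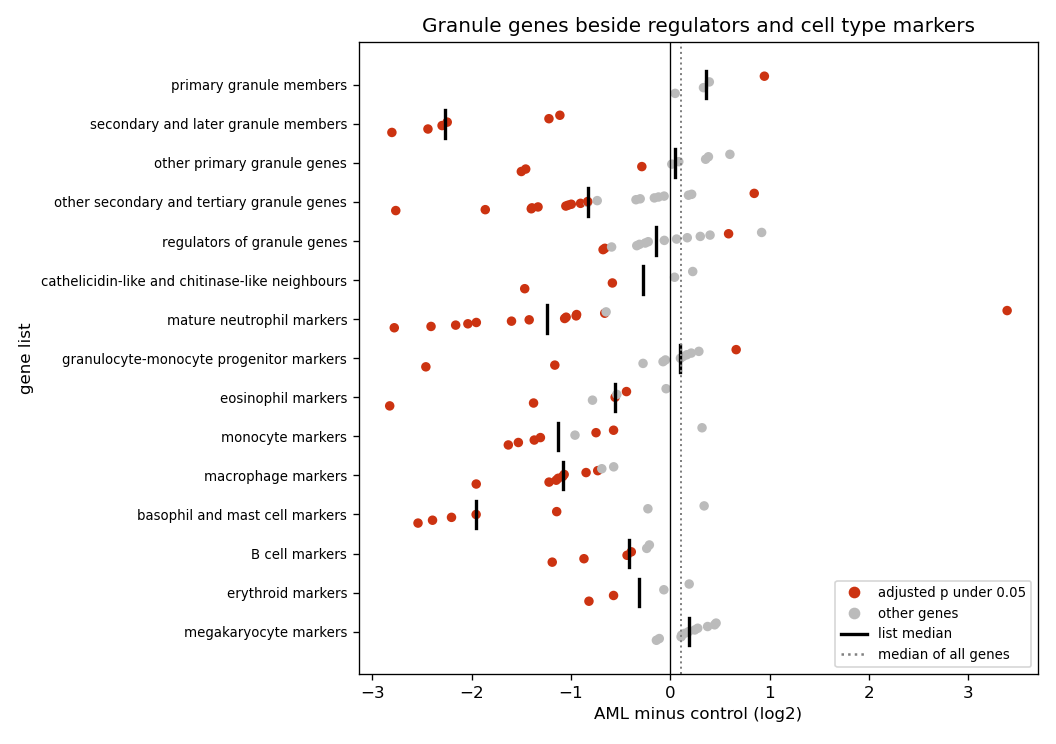
AML minus control difference (log2, horizontal axis) of every measured gene in each list (rows), red where the adjusted p was under 0.05, with the list median as a black bar and the median of all genes as a dotted line. The secondary and later granule genes have the lowest list median, -2.27, and the primary genes the highest, 0.36.

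The profile of each class over the 6 arrays was set beside those of 15322 other genes at or above the median level. Each profile was centred on its own mean, and likeness was the root mean square difference from the mean profile of the class. Nearest to the secondary and later genes were Mcpt8 (0.06), Cytip (0.10), S100a8 (0.11), Cd200r3 (0.13) and Bank1 (0.15), with differences of -2.20 to -1.84. Cd200r3 and Cytip lay below background on all 3 AML arrays, so their AML levels, and with them their likeness, are not well measured. All 5 lay nearer to the class mean than any of its own 6 genes, which were 0.17 (Ltf) to 0.47 (Ngp) away. The 5 were picked as the closest of 15322 genes to an average of unequal falls, so their nearness follows from the search. Nearest to the primary genes were Eif5a (0.03), Eif5al3-ps (0.04), Pigt (0.05), Gm5866 (0.05) and Cct7 (0.05), with differences of 0.36 to 0.43 and limma's adjusted p of 0.0650 to 0.129. Prtn3, at 0.05, was the most typical of the primary genes, and Ctsg, at 0.28, the least.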

How the data were processed

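Per the submitters' processing notes, the authors deposited log2 expression values made with RMA, which subtracts background, equalises the distributions of the arrays and summarises probes by row; no version is given. Per the labels' protocols the arrays were hybridised with biotin-labelled cDNA from 250 ng of total RNA. Sources used here give no genome build for the array. Of 72688 rows, 32750 carry a gene symbol in the platform's annotation. Rows with several genes (1534) named none, 612 rows with several names of 1 gene were named (Chil3 among them), and symbols were updated through RefSeq (GRCm38.p6). Where a gene had several rows (438 genes), the row of highest mean over 6 arrays stood for it, which left 30664 genes.

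AML and control were compared by limma (lmFit and eBayes, without trend, two-sided) on the values as deposited, with no filter, and Benjamini-Hochberg adjustment over all genes at a threshold of 0.05. Every adjusted p is limma's. The fit was also run on simulated data with independent noise for each gene and array. Those data held no array-wide shift or raised background, so the run cannot speak to such effects here. The members, gene lists and tests were chosen with earlier results of these data known. Named beside the 10 genes were, of each list, up to 4 genes past the threshold per direction by smallest p, the 2 brightest, Cebpe, Cebpa and Gfi1, and the 5 nearest profiles. Not every gene the rule allows is given a value. Any other gene, and the neighbours on the chromosome, were named after their values were seen. Summed levels add 2 to the power of the log2 value over a list's genes. Motif spellings were chosen after the expression values had been seen. Some genes of the lists were not analysed here, and counts are over the measured genes. Alternatives were cyclic loess, median centring, renewed quantile normalization, array weights, a replicate block, eBayes with trend, fold minima, filters on dim genes, averaging the rows of a gene, and each array left out in turn. Naming by rows with 1 symbol only was added after seeing the data. Tools were limma 3.58.1 and the data.table package (1.17.8) in R 4.3.3, with matplotlib 3.10.9, pandas 2.3.3 and numpy 2.4.6 in Python 3.11.15.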

Additional observations from a re-analysis of the deposited data

How the results depend on the processing

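The falls of Ltf, Camp, Ngp, Lcn2 and Mmp8 kept their direction and an adjusted p under 0.05 in all 16 alternative fits, and that of Chil3 in all 15 that measured it (limma's adjusted p at most 0.0226), and all 6 met a 2-fold minimum. Naming by rows with 1 symbol only leaves Chil3 out, and then 5 of 5 fell. The gap between the class medians, -2.63, ran from -2.79 to -2.60 over the other fits and from -2.75 to -2.44 with an array left out. Of the primary genes, 1 passed in the fit as reported, 0 with the replicate block, 3 with array weights, 2 under cyclic loess, 0 with a 2-fold minimum, and 0 to 1 with an array left out. Mpo turned to -0.059 with array weights, -0.071 under median centring, -0.0049 without AML array 1 and -0.10 without control array 1, and reached 0.19 without control array 2. The count over all genes, 3285, was 1116 with the replicate block, 7994 with array weights, 1592 with a 1.5-fold and 574 with a 2-fold minimum, and 986 to 3631 with an array left out. Its split of 1375 higher and 1910 lower became 511 and 2746 under median centring and 1231 and 2404 under cyclic loess, and 4942 and 3052, the other way, with array weights. Same-numbered arrays did not deviate together (correlations of -0.36, 0.14 and -0.28 over genes), so the numbers were not read as pairs. With the block Ctsg had an adjusted p of 0.0831. The cause of these changes was not tested. With 3 arrays a group, small differences such as those of Elane and Prtn3 are poorly resolved, and signal near background limits Chil3.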
